A study of Equus caballus with 31 samples.

Results

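The genes described here are 8 antioxidant and NRF2 target genes of the horse: ME1, SRXN1, PRDX1, PRDX2, NQO1, GCLM, GCLC and SLC7A11. They were taken by gene symbol from a set of 9, of which TXNRD1 was not analysed here. All 8 had a row in both expression tables, among 17538 genes for synovial (joint) fluid cells and 17410 genes for blood mononuclear cells (PBMC). ME1 and PRDX2 were chosen by their measured fold change between osteoarthritis (OA) and healthy horses, ME1 in fluid and PRDX2 in blood. Those contrasts are therefore given as descriptions without a test. The other genes were also listed with results of these data known, so their tests are no independent support.

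NRF2 (gene NFE2L2) is a transcription factor that is held in the cytoplasm and marked for breakdown by KEAP1. Oxidants and electrophiles modify KEAP1, NRF2 then accumulates and, with a small MAF partner, binds antioxidant response elements near its target genes. The targets make glutathione, supply NADPH and keep thioredoxins and peroxiredoxins reduced. In joints, oxidative stress is one of the processes studied in OA.

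RNA was sequenced from 31 libraries of horses whose genotype is labelled WT. The groups were fluid cells of horses with naturally occurring OA (n = 5), fluid cells of healthy horses (n = 11), PBMC of horses with OA (n = 6) and PBMC of healthy horses (n = 9). Disease status came from lameness examination, radiographs and joint analgesia, and horses with recent medication or joint injection were left out. The labels call all samples mixed mononuclear cells and give no age, sex, joint or batch, so a batch that followed disease cannot be told apart from disease. Horses carry their label names, OA_ or ORC_ (healthy) and a number, and 13 horses, 5 with OA and 8 healthy, gave both samples.

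Values are normalised read counts: reads that the authors divided by a size factor of each library, in a separate table for each tissue. Levels are therefore not compared between tissues, nor between genes, since they are not per length. A fold change is OA over healthy, computed on log2(value + 1), a scale that understates changes of low genes and gives much weight to a library at 0, and is printed with its SE. Adjusted p-values are from limma with Benjamini-Hochberg adjustment over all genes with a mean of at least 10, and the threshold was 0.05. Fluid libraries held 25.9 to 36.3 M reads, without a detected difference between OA and healthy (p = 0.25, exact permutation test, two-sided). In PBMC the depth was greater in OA, at 31.7 to 34.8 M reads in the OA group against 23.9 to 32.2 M in the healthy group (p = 0.000799 by the same exact test).

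The samples were checked against marker genes. Fluid held T cell, monocyte and macrophage transcripts, and also fibroblast transcripts such as COL1A1, COL1A2 and COL3A1, which the label of mononuclear cells does not name. Summed fibroblast markers ran from 1574 to 685478 in OA fluid and from 868 to 135959 in healthy fluid. In fluid 12 of 13 tested T cell markers fell in OA, with a median log2 fold change of -2.04. In PBMC 11 of 13 fibroblast markers had a mean under 10, and IL7R, a T cell marker, had a mean under 10 in both tissues. These are bulk samples, in which fewer cells of a type and less RNA per cell cannot be told apart.

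In fluid, 3 of the 8 genes were higher in OA by the threshold (ME1, SRXN1 and PRDX1), 1 was lower (NQO1) and 4 were not past it (GCLM, GCLC, SLC7A11 and PRDX2). Over all 13885 genes tested in fluid the same rule called 28.1%, with 14.4% higher and 13.6% lower. ME1 is in the fluid count because that contrast chose it, and nothing is read from its place there. The median log2 fold change was 0.91 over the 8 genes and 0.08 over all genes. The median of the 8 holds the ME1 value that chose that gene, so nothing is read from it. In PBMC SLC7A11 had a mean under 10 and was not tested. Of the other 7, limma called 0 higher and 2 lower (NQO1 and PRDX2), against 5.4% called over all 13072 genes, 3.2% higher and 2.2% lower. PRDX2 is in this count by its choice. At an unadjusted p under 0.05 there were 5 of the 7, ME1 and GCLC among them on the higher side. This count also holds PRDX2 by its choice. The share of all genes at an unadjusted p under 0.05 was not computed. No count at that level in this text is therefore read as a result. DESeq2 also placed ME1 and GCLC past the threshold on the higher side in PBMC (adjusted p = 0.0139 and 0.0208), and edgeR did not (adjusted p = 0.0525 and 0.061). The 7 PBMC fold changes had a median of 0.14 against 0.02 over all genes. That median holds the PRDX2 value that chose that gene, and nothing is read from it either.

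**Figure D1:**
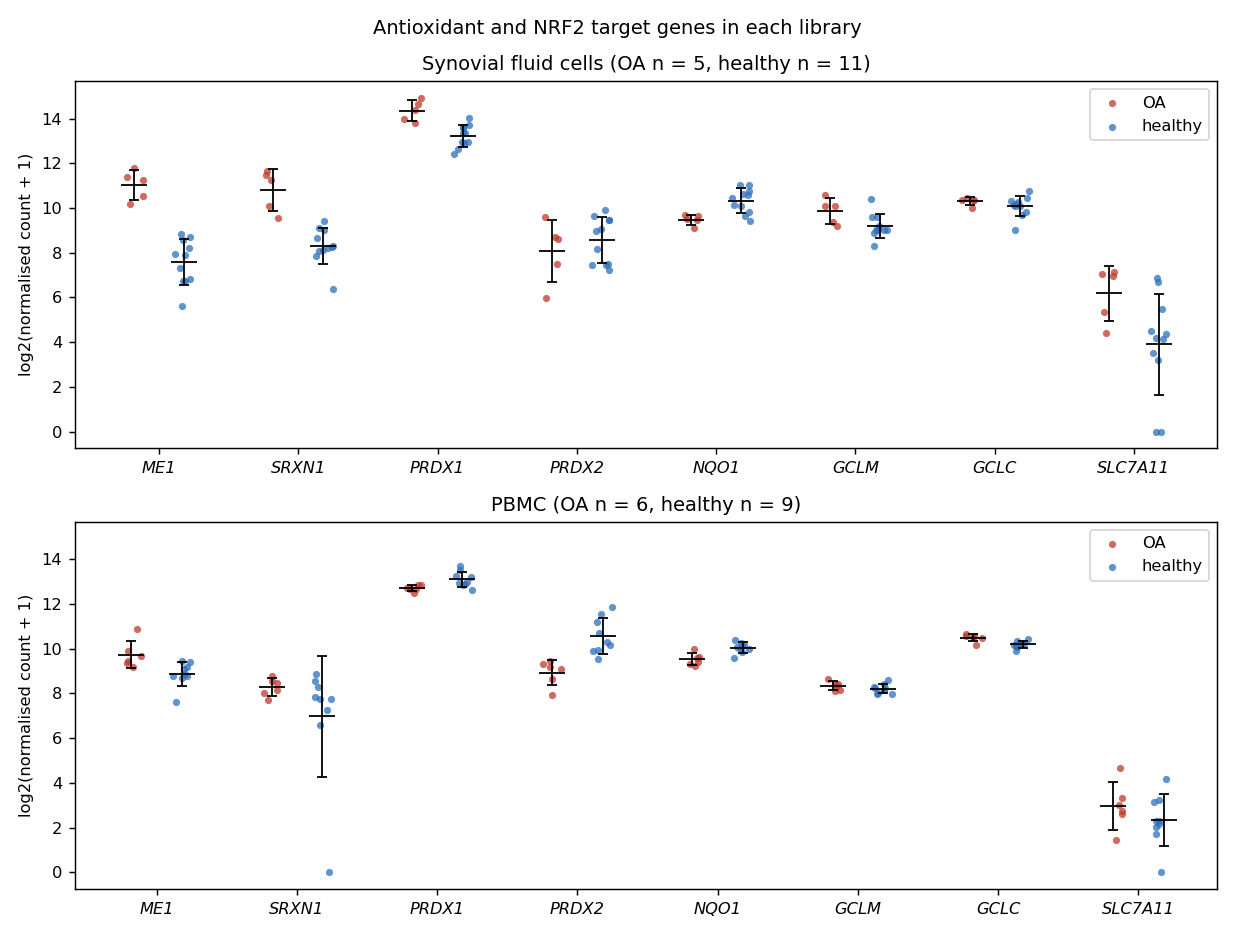
Log2(normalised count + 1) of the 8 genes in each library of synovial fluid cells (top) and PBMC (bottom); points are libraries, OA left of healthy, and bars are the mean and SD. In fluid all 5 OA points of ME1 and SRXN1 lie above every healthy point, and in PBMC all 6 OA points of PRDX2 lie below every healthy point. ME1 in fluid and PRDX2 in PBMC were chosen by these contrasts, so nothing is read from their order.

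ME1 encodes cytosolic malic enzyme, which makes NADPH while it converts malate to pyruvate. It lies on chromosome 10 at 37839447 to 38052334 (EquCab3.0, the build of all coordinates here). In OA fluid it had 3554 normalised counts in OA_1038, 2414 in OA_2615, 2712 in OA_3850, 1478 in OA_9350 and 1151 in OA_9570. In healthy fluid it ran from 47.5 in ORC_196 through a median of 236 to 455 in ORC_202. The lowest OA library thus stood above the highest healthy one. Over all genes tested in fluid 3.56% had groups that did not overlap, 1.57% with OA higher and 1.99% with OA lower. The means were 2262 ± 968 in OA (SD, n = 5) and 232 ± 140 in healthy fluid (SD, n = 11), a log2 fold change of 3.45 ± 0.46 (SE), or 10.9-fold. This contrast chose the gene, so nothing is read from the count.

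In PBMC, which did not choose it, ME1 ran from 581 through a median of 756 to 1893 in OA, the highest in OA_9570, and from 196.8 through 472 to 691 in healthy horses. All 6 OA libraries lay above the healthy median, and 4 of 6 lay above every healthy library. The log2 fold change was 0.87 ± 0.27 (SE) and missed the threshold with limma (adjusted p = 0.0694). Without OA_9570 it was 0.64. OA_9570, the highest ME1 in PBMC, was the lowest OA library for ME1 in fluid. Summed monocyte markers (7 genes, led by LYZ, VCAN and CSF1R) also ran higher in OA PBMC, from 104309 through 165983 to 244576, against 55356 through 86314 to 147570 in healthy PBMC. OA_9570 had the highest monocyte sum and ORC_209, the lowest ME1, had the lowest. Of the 7 monocyte markers 2 rose by limma (6 at an unadjusted p under 0.05; median log2 fold change 1.17), and their part in the PBMC values was not tested.

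SRXN1 encodes sulfiredoxin, which repairs peroxiredoxins whose active-site cysteine has been over-oxidised. It lies on chromosome 22 at 22386161 to 22392278. In OA fluid it had 2888 normalised counts in OA_1038, 2411 in OA_2615, 3213 in OA_3850, 1072 in OA_9350 and 755 in OA_9570. In healthy fluid it ran from 82.2 in ORC_196 through a median of 303 to 678 in ORC_208, so the groups did not overlap. Over all genes tested in fluid 1.57% had groups apart with OA higher. OA_9350 and OA_9570 were the lowest OA libraries for SRXN1, as for ME1. Both also had the lowest fibroblast marker sums of OA fluid, 140419 and 1574. ORC_208, the healthy library highest in SRXN1, had a fibroblast sum of only 1132. The part of these cells in the SRXN1 values was not tested. SRXN1 rose in OA fluid, with a log2 fold change of 2.49 ± 0.42 (SE; limma adjusted p = 0.00101) and means of 2068 ± 1097 in OA (SD, n = 5) and 358 ± 169 in healthy horses (SD, n = 11).

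In PBMC SRXN1 had 208.3 to 435 normalised counts in OA with a median of 315. Healthy PBMC had 0 to 460 with a median of 213. The value of 0 was in ORC_202, where 3 reads would be worth 3.96 normalised counts; the next lowest healthy library had 94.1. Of 10488 PBMC genes with a median of at least 100, 17 had a library at 0. The log2 fold change in PBMC was 1.29 (SE 1.0; limma adjusted p = 0.427) and 0.42 without ORC_202 (adjusted p = 0.37).

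PRDX1 encodes a peroxiredoxin, an enzyme that reduces hydrogen peroxide and is itself reduced by thioredoxin. It lies on chromosome 2 at 12960806 to 12970588. In OA fluid it had 14476 normalised counts in OA_1038, 25999 in OA_2615, 21318 in OA_3850, 31280 in OA_9350 and 16088 in OA_9570. Healthy fluid ran from 5459 through a median of 10395 to 16554 in ORC_198. The groups overlapped: 3 of 5 OA libraries were above every healthy one, and ORC_198 lay inside the OA range. OA_9350 and OA_2615, highest in PRDX1, also had the highest macrophage marker sums of OA fluid, 511183 and 599385. ORC_205, with the highest healthy macrophage sum, 531345, had a PRDX1 of 12116. The part of macrophages in the PRDX1 values was not tested. PRDX1 rose in OA fluid by a log2 fold change of 1.13 ± 0.25 (SE; limma adjusted p = 0.00491). In PBMC it ran from 5761 through 6615 to 7446 in OA and from 6258 through 7986 to 13465 in healthy horses, a log2 fold change of -0.40 ± 0.14 that missed the threshold with limma (adjusted p = 0.104) and passed it with DESeq2 (adjusted p = 0.0434).

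PRDX2 encodes a second thioredoxin-dependent peroxiredoxin, abundant in red blood cells. It lies on chromosome 7 at 46874190 to 46876790. In OA PBMC it ran from 241 in OA_9350 through a median of 562 to 690 in OA_2615. In healthy PBMC it ran from 744 in ORC_209 through 1276 to 3677 in ORC_208. No OA library reached the lowest healthy one. Over all genes tested in PBMC 1.05% had groups that did not overlap, 0.612% with OA higher and 0.436% with OA lower. The means were 516 ± 169 in OA (SD, n = 6) and 1759 ± 1029 in healthy PBMC (SD, n = 9), a log2 fold change of -1.65 ± 0.34 (SE), or 0.32-fold, given without a test because it chose the gene. The gap between the lowest healthy and the highest OA library was small beside the spread of the healthy libraries.

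In fluid PRDX2 did not show that separation. It had 779 normalised counts in OA_1038, 388 in OA_2615, 418 in OA_3850, 177 in OA_9350 and 61.6 in OA_9570, against 148 to 963 with a median of 501 in healthy horses. The log2 fold change was -0.50 ± 0.56 (SE; limma adjusted p = 0.522), and without OA_9570 it was 0.03.

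NQO1 encodes a quinone reductase that uses NADH or NADPH, a widely used readout of NRF2 activity. It lies on chromosome 3 at 20413241 to 20428450. In OA fluid it had 792 normalised counts in OA_1038, 717 in OA_2615, 817 in OA_3850, 547 in OA_9350 and 713 in OA_9570. Healthy fluid ran from 693 in ORC_188 through 1378 to 2115. All 5 OA libraries were below the healthy median, and 2 healthy libraries fell within the OA range. NQO1 fell in OA fluid, the direction opposite to SRXN1 and PRDX1, with a log2 fold change of -0.86 ± 0.25 (SE; limma adjusted p = 0.017). Without OA_9350 the adjusted p was 0.0509. The healthy libraries lowest in NQO1, ORC_188 (693), ORC_202 (808) and ORC_205 (903), also had the lowest healthy T cell marker sums, 45029, 37963 and 57838. In OA fluid those sums ran from 8436 to 38669, and the part of T cells in the NQO1 values was not tested.

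NQO1 also fell in PBMC. It ran from 603 through 725 to 1022 normalised counts in OA and from 764 through 1083 to 1336 in healthy horses, and 3 of 6 OA libraries lay below every healthy one. The log2 fold change was -0.52 ± 0.13 (SE; limma adjusted p = 0.0358). The call did not hold when any 1 of 7 of the 15 PBMC libraries was left out: OA_3850, OA_4110, OA_9350, OA_9570, ORC_200, ORC_207 or ORC_208 (adjusted p 0.057 to 0.102).

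GCLM and GCLC encode the modifier and catalytic subunits of glutamate-cysteine ligase, the first step of glutathione synthesis. GCLM lies on chromosome 5 at 67985849 to 68002931 and GCLC on chromosome 20 at 52096310 to 52139043. GCLM in OA fluid had 670 normalised counts in OA_1038, 1102 in OA_2615, 1074 in OA_3850, 1520 in OA_9350 and 584 in OA_9570, against 310 to 1354 with a median of 519 in healthy fluid. Its log2 fold change of 0.68 ± 0.28 (SE) missed the threshold with limma (adjusted p = 0.0755). The call was gained without OA_9570 (adjusted p = 0.0338) and without ORC_205, the highest healthy library (adjusted p = 0.0205). ORC_205 also had the highest healthy macrophage marker sum, 531345. OA_9350 and OA_2615 had the highest of OA fluid, 511183 and 599385. ORC_197, with a macrophage sum of 230037, had a GCLM of 518. The part of macrophages in the GCLM values was not tested.

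GCLC in OA fluid had 1312 normalised counts in OA_1038, 1037 in OA_2615, 1389 in OA_3850, 1313 in OA_9350 and 1315 in OA_9570, within the healthy range of 510 to 1719 (log2 fold change 0.23 ± 0.21, SE; limma adjusted p = 0.434). In PBMC GCLC ran from 1162 through 1498 to 1634 in OA and from 956 through 1170 to 1389 in healthy horses, with 5 of 6 OA libraries above every healthy one. Its log2 fold change of 0.31 ± 0.10 (SE) missed the threshold (limma adjusted p = 0.0684) and passed it without OA_1038 (adjusted p = 0.0261). GCLM in PBMC ran from 276 to 402 in OA and from 249 to 388 in healthy horses (log2 fold change 0.14 ± 0.13, SE; limma adjusted p = 0.507).

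SLC7A11 encodes the cystine transporter subunit that brings in cystine for glutathione synthesis. It lies on chromosome 2 at 93192888 to 93264861 and was the lowest of the 8 in reads. In OA fluid it had 39 normalised counts in OA_1038, 141 in OA_2615, 123 in OA_3850, 132 in OA_9350 and 21 in OA_9570. Healthy fluid ran from 0 in ORC_197 and ORC_205 through 17.3 to 117.1 in ORC_188. The means were 91.1 ± 56.6 in OA (SD, n = 5) and 32.5 ± 40.2 in healthy horses (SD, n = 11), and the log2 fold change of 2.28 ± 1.04 (SE) missed the threshold (limma adjusted p = 0.105). It was smaller by edgeR, 1.44 (adjusted p = 0.266), and by DESeq2, 1.49 (adjusted p = 0.219). In PBMC it had 1.69 to 24.6 in OA and 0 to 17.2 in healthy horses.

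Whether the OA effect differed between tissues was tested for the 7 genes measured well enough in both, over 12733 genes of which 22.3% were called, 10.3% with the effect more positive in fluid and 11.9% more negative. PRDX1 differed: its log2 fold change was 1.53 ± 0.29 (SE) larger in fluid than in PBMC (limma adjusted p = 0.00109), and 1.49 over the 13 horses with both samples (replicate block, adjusted p = 0.00301). For ME1 the effect was 2.58 ± 0.56 (SE) larger in fluid, and for PRDX2 it was 1.15 ± 0.69 (SE) less negative in fluid. Both are given without a test, since 1 side of each chose the gene. NQO1 did not pass (-0.34 ± 0.28, adjusted p = 0.387), nor did GCLM (0.54 ± 0.29, adjusted p = 0.179) or GCLC (-0.08 ± 0.22, adjusted p = 0.825). SRXN1 had a difference of 1.20 ± 1.49 (SE; limma adjusted p = 0.6), which became 2.10 (adjusted p = 0.00938) without horse ORC_202.

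Levels of a gene in fluid and in blood of the same horse were compared over the 8 healthy horses with both samples. No relation of the 7 computed passed adjustment. ME1 had Pearson r = 0.738 (exact permutation p = 0.0169, adjusted p = 0.118) and Spearman rho = 0.714 (exact permutation p = 0.0576, adjusted p = 0.202), and r was 0.537 without ORC_205 and ORC_209. PRDX2 had r = 0.566 (exact permutation p = 0.147, adjusted p = 0.516) and rho = 0.476 (exact permutation p = 0.243, adjusted p = 0.425), and r was 0.905 without ORC_197 and ORC_208. SRXN1 had r = 0.177 (exact permutation p = 0.794, adjusted p = 0.794) but rho = 0.762 (exact permutation p = 0.0368, adjusted p = 0.202), and r was 0.984 without ORC_202, the library at 0, and ORC_209. The 5 OA horses with both samples were too few for a correlation.

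**Figure D2:**
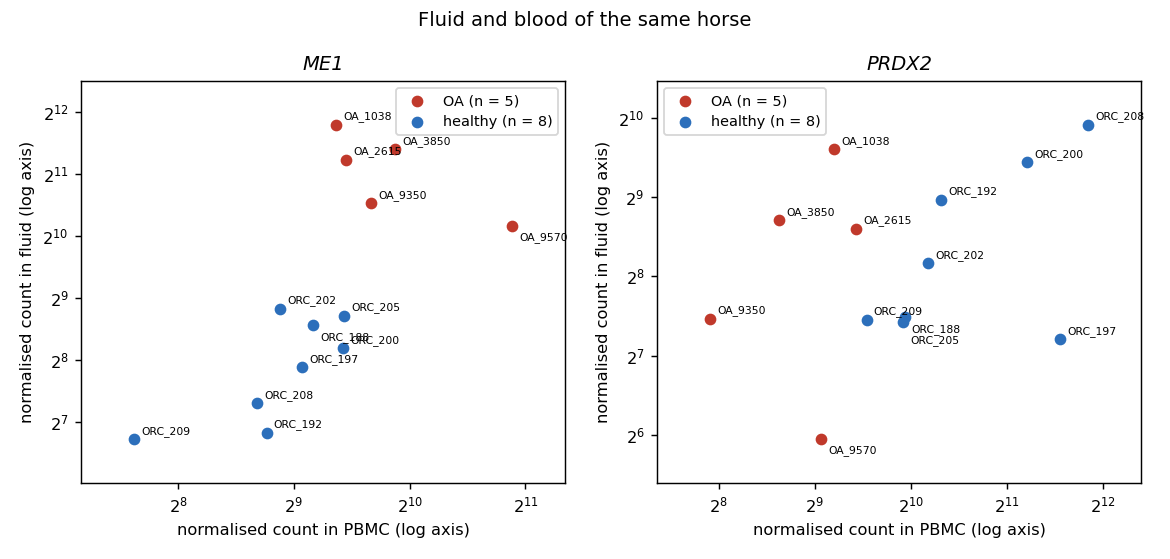
Normalised counts of ME1 (left) and PRDX2 (right) in PBMC (horizontal, log axis) and fluid (vertical, log axis) of the 13 horses with both samples, 5 OA and 8 healthy. For ME1 the OA horses separate from the healthy ones on the fluid axis, and for PRDX2 on the PBMC axis. These contrasts chose the genes, so nothing is read from the separation.

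Cell markers also differed between OA and healthy fluid, and their part in the ME1 values was not tested. Fibroblast markers had a median log2 fold change of 3.47 in OA fluid, with 4 of 14 past the threshold and 12 at an unadjusted p under 0.05. Macrophage markers had a median of 1.59, with 2 of 11 past the threshold. Over all fluid genes 28.1% were past it. Summed T cell markers ran from 8436 to 38669 in OA fluid and from 37963 to 138885 in healthy fluid. The 3 healthy libraries with the most ME1, ORC_202 (455), ORC_205 (421) and ORC_188 (379), were the 3 with the lowest T cell sums, 37963, 57838 and 45029. OA_9570 had a fibroblast marker sum of 1574, inside the healthy range, and an ME1 of 1151. The other OA fibroblast sums, 140419 to 685478, were above every healthy one. The contrast that chose ME1 put every OA library above every healthy one, so that order holds at any sum and nothing is read from it. ORC_188 had the highest healthy fibroblast sum, 135959, with an ME1 of 379. OA_1038 had the lowest macrophage marker sum in OA fluid, 43660, and the highest ME1, 3554. ORC_205 had a macrophage sum of 531345 and an ME1 of 421.

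For PRDX2 in PBMC the summed proliferation genes (13 genes, led by MCM2, MCM5 and MCM3, which license DNA replication) ran from 8563 in OA_9350 through 11564 to 15845 in OA_2615. In healthy PBMC they ran from 13227 in ORC_202 through 19713 to 34281 in ORC_208. OA_9350 and OA_2615 also had the lowest and the highest PRDX2 of the OA group, and ORC_208 the highest of the healthy group. Of the 13 proliferation genes 7 fell in OA PBMC and 0 rose (limma; median log2 fold change -1.08), with 0 past the threshold without OA_3850, OA_9350 or OA_9570, 4 without ORC_200 or ORC_208, 2 without ORC_207 and 12 without ORC_202. At an unadjusted p under 0.05 there were 13 of 13, and edgeR called 8 and DESeq2 13. Over all 13072 PBMC genes tested, limma called 2.2% lower, edgeR called 302 genes lower and DESeq2 750. The share of all genes at an unadjusted p under 0.05 was not computed. Where the sums overlapped, OA_1038 and OA_2615 (14476 and 15845) had a PRDX2 of 588 and 690, and ORC_202 and ORC_209 (13227 and 13793) had 1159 and 744. The contrast that chose PRDX2 put every OA library below every healthy one, so this order holds at any sum and nothing is read from it. Erythroid markers summed to 323 to 2370 in OA PBMC and 271 to 800 in healthy PBMC, and limma called 0 of 9 (3 at an unadjusted p under 0.05; 0 by edgeR and 2 by DESeq2). The part of proliferation and of depth, which was greater in OA PBMC, was not tested.

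**Figure D3:**
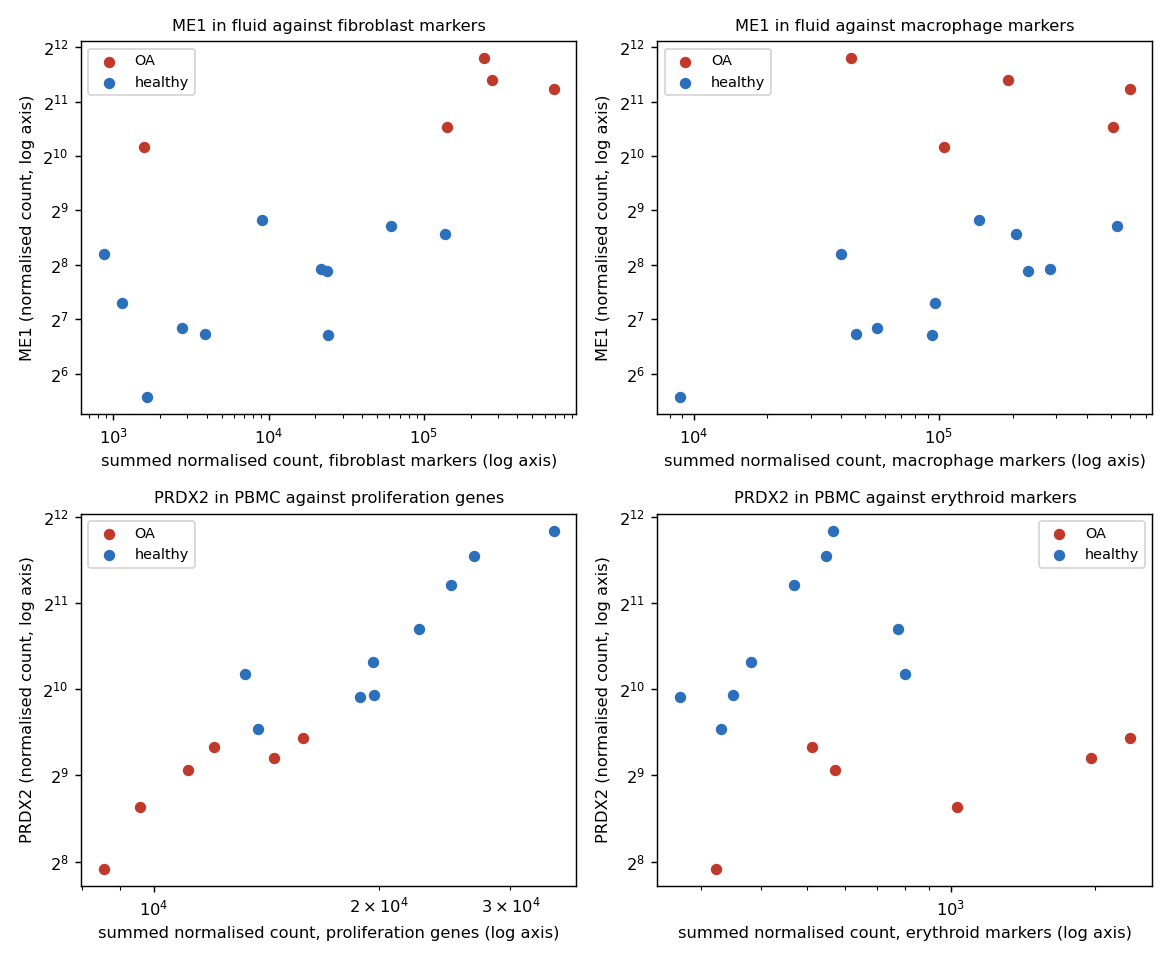
ME1 in fluid against summed fibroblast and macrophage markers (top) and PRDX2 in PBMC against summed proliferation and erythroid genes (bottom), 1 point a library, log axes. All 5 OA points of ME1 lie above the healthy ones, in the contrast that chose the gene, so nothing is read from that order. Only OA_9570, at 1574, has an OA fibroblast sum inside the healthy range. The highest PRDX2, 3677 in ORC_208, sits at the highest proliferation sum, 34281.

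The genes whose level most resembled that of ME1 in fluid were found after the group means were taken out, over 16 libraries and 12135 genes with a mean of at least 50. They were ITGB5 (an integrin subunit, r = 0.862), SNX7 (a sorting nexin, r = 0.849), DSTN (destrin, an actin-severing protein, r = 0.846), B3GALNT1 (a glycosyltransferase, r = 0.844) and AP2M1 (a clathrin adaptor subunit, r = 0.843). Of the other 7 genes described here SRXN1 ranked 106 (r = 0.744), PRDX1 1033 (r = 0.538) and GCLM 1042 (r = 0.537), while SLC7A11 had r = 0.084, GCLC -0.017, PRDX2 -0.073 and NQO1 -0.244. For PRDX2 in PBMC, over 15 libraries and 11462 genes, they were FEN1 (r = 0.947), TUBA1C (r = 0.943), H2AX (r = 0.934), PCNA (r = 0.931) and GTSE1 (r = 0.929), of which FEN1 and PCNA act in DNA replication. PRDX1 ranked 155 (r = 0.828), while NQO1 had r = 0.382, SRXN1 0.27, ME1 0.145, GCLC -0.22 and GCLM -0.289. These correlations are across libraries that share depth and cell makeup and describe likeness only.

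The wider pathway was followed in lists of genes that leave out the 8. Some genes are in more than 1 list. Of 20 other NRF2 targets tested in fluid, 11 rose and 0 fell, with a median log2 fold change of 0.97 against 0.08 over all genes. Over all genes tested the rule called 14.4% higher and 13.6% lower in fluid, and 3.2% higher and 2.2% lower in PBMC. The count of 11 was 8 with equal library totals, and ran from 8 to 13 when libraries were left out in turn. FTL, a ferritin subunit, rose by 1.84 ± 0.30 (SE; limma adjusted p = 0.000782), and TXN, thioredoxin, by 1.52 ± 0.27 (adjusted p = 0.00128). CBR3, a carbonyl reductase, rose by 1.77 ± 0.35 (adjusted p = 0.00233), and HMOX1, which breaks down haem, by 2.37 ± 0.49 (adjusted p = 0.00332). HMOX1 is also abundant in macrophages, whose marker sums ran from 43660 to 599385 in OA fluid and from 8798 to 531345 in healthy fluid; their part was not tested. In PBMC 1 of 20 rose, ABCC4, a multidrug exporter (1.5 ± 0.34, SE; adjusted p = 0.0252), and 0 fell. ABCC4 lost its call without OA_3850, OA_9350 or OA_9570 (adjusted p up to 0.0806).

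Among 10 NRF2 regulators in fluid, 2 rose and 2 fell, beside 14.4% higher and 13.6% lower over all fluid genes. MAFF, a small MAF partner, rose by 2.62 ± 0.59 (SE; limma adjusted p = 0.00521) and RBX1, a ubiquitin ligase subunit, by 0.68 ± 0.21 (adjusted p = 0.0242). BACH2, a repressor of the same elements, fell by 1.52 on the log2 scale (adjusted p = 0.02) and CUL3, the KEAP1 ligase scaffold, fell by 0.37 (adjusted p = 0.0419). In the same OA fluid 12 of 13 T cell markers fell (median log2 fold change -2.04). B cell markers had a median of -1.45, with 1 of 8 past the threshold. The part of these cells in the fluid values was not tested. CUL3 lost its call in 10 of 16 fits that left out 1 library, BACH2 without OA_2615 or OA_9350 (adjusted p up to 0.0715) and RBX1 without OA_1038 or OA_9350 (adjusted p up to 0.0696). RBX1 also missed the threshold with equal library totals (adjusted p = 0.0692). In PBMC NFE2L2 rose by 0.70 ± 0.19 (SE; adjusted p = 0.0419) and BACH1, a repressor, by 1.12 ± 0.29 (adjusted p = 0.0357), the only 2 of 10 past the threshold. These calls were lost in 10 and 7 of 15 fits that left out 1 library. Monocyte markers, with the sums given for ME1, were higher in the same OA PBMC, and their part was not tested.

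Of 13 genes that supply NADPH, 3 rose in fluid and 1 fell, a share near the 28.1% called over all fluid genes. Among them IDH1 and PGD rose by 0.75 and 0.66 (limma adjusted p = 0.0244 and 0.0471), and ME3, the mitochondrial relative of ME1, fell by 1.09 on the log2 scale (limma adjusted p = 0.00713). When libraries were left out in turn, this list had 0 (without OA_2615 or OA_9570) to 6 (without ORC_202) genes higher, with 1 in 8 of those fits, and with equal library totals limma called 0 higher. The call of PGD was lost in 13 of those 16 fits, and that of IDH1 without OA_2615 or OA_9570 (adjusted p up to 0.0588). Of 23 glutathione genes 8 rose and 1 fell, beside 14.4% higher and 13.6% lower over all fluid genes. The count of 8 was 6 with equal library totals, and ran from 6 to 10 when libraries were left out in turn. GLRX3, a monothiol glutaredoxin, rose by 0.93 ± 0.17 (SE; adjusted p = 0.00145), GPX4, which reduces lipid peroxides, by 0.84 ± 0.20 (adjusted p = 0.00665) and MGST3, a microsomal glutathione transferase, by 0.89 ± 0.22 (adjusted p = 0.00726), while GGT7 fell by 1.34 (adjusted p = 0.00389).

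Of 16 thioredoxin and peroxiredoxin genes 9 rose and 1 fell in fluid, where the same rule called 14.4% of all genes higher and 13.6% lower. The count of 9 was 8 with equal library totals, and ran from 7 to 10 when libraries were left out in turn. SELENOW, a small selenoprotein, rose by 1.31 ± 0.30 (SE; limma adjusted p = 0.00518) and PRDX4, a peroxiredoxin of the endoplasmic reticulum, by 0.91 ± 0.21 (adjusted p = 0.00572). TXNIP, which binds and inhibits thioredoxin, fell by 1.09 on the log2 scale (adjusted p = 0.00334). Of 7 superoxide and peroxide enzymes 5 rose and 0 fell; SOD1 rose by 0.94 ± 0.23 (adjusted p = 0.00746) and CAT, catalase, by 0.75 ± 0.19 (adjusted p = 0.00947). SOD3 (3.35 ± 1.19, adjusted p = 0.0439) and PON2 (1.51 ± 0.41, adjusted p = 0.0128) were also past the threshold, SOD3 in 6 of 16 fits that left out 1 library and PON2 in all but the fit without OA_2615 (adjusted p = 0.0528). The count of 5 was 3 with equal library totals, 2 without OA_2615, and 3 without OA_1038, OA_3850, OA_9350, ORC_192, ORC_200, ORC_201 or ORC_209.

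In PBMC these lists showed fewer calls by limma, as did all genes tested, with 5.4% called in PBMC against 28.1% in fluid. NADPH supply had 1 of 13 higher (NADK, 0.45 ± 0.12, SE; adjusted p = 0.0444), and glutathione had 1 of 21 higher (MGST1, 1.25 ± 0.31; adjusted p = 0.0331) and 1 lower (GPX7, -0.69 ± 0.20; adjusted p = 0.0486). Thioredoxin and peroxiredoxin genes had 0 of 16 called (2 at an unadjusted p under 0.05; 0 by edgeR and 1 by DESeq2). Superoxide and peroxide enzymes had 0 of 6 called (2 unadjusted; 0 by edgeR and 2 by DESeq2). Of the 15 fits that left out 1 library, NADK, MGST1 and GPX7 lost the call in 11, 5 and 11, with adjusted p up to 0.138. The difference between tissues in these counts was not tested.

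**Figure D4:**
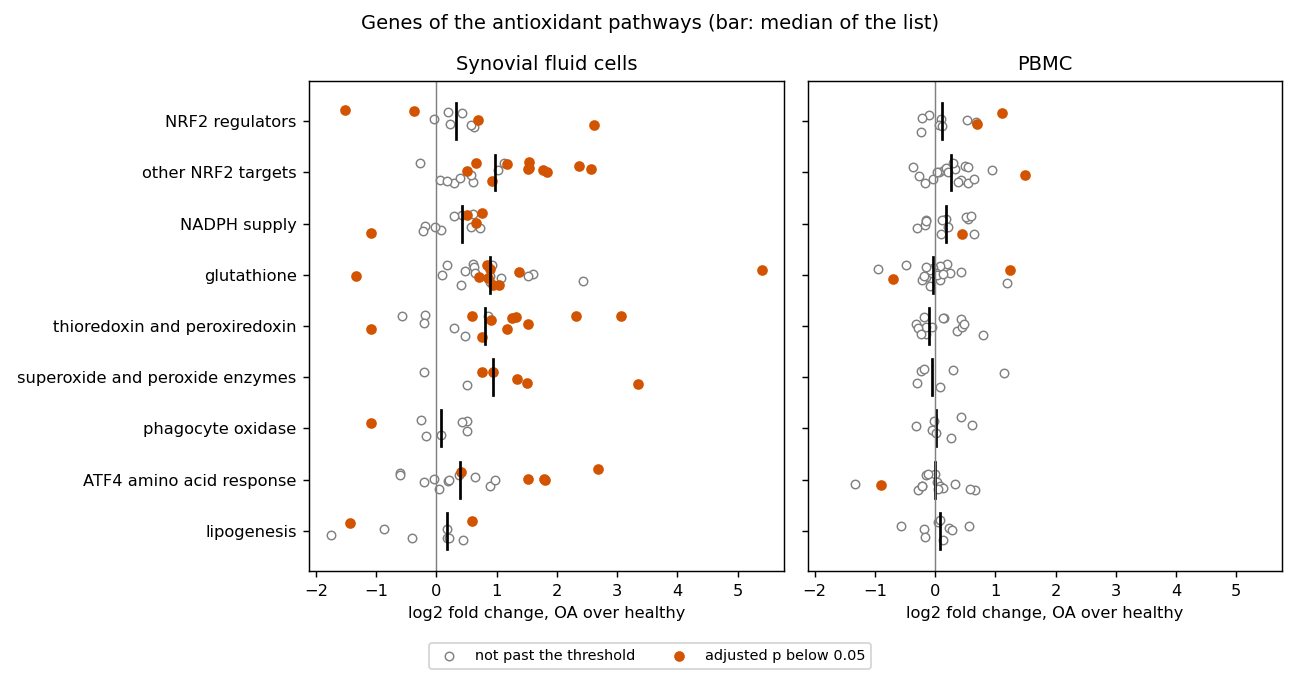
Log2 fold change, OA over healthy, of each gene of 9 pathway lists in fluid (left) and PBMC (right); filled points passed an adjusted p of 0.05 and the bar is the list's median. In fluid the medians of the NRF2 target, glutathione, thioredoxin and superoxide lists lie between 0.80 and 0.97, and in PBMC between -0.10 and 0.26.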

How the data were processed

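Polyadenylated RNA of frozen cell pellets was sequenced, per the labels' protocols; fluid had been digested with hyaluronidase. The authors deposited a signal per gene, which is a read count over the library's median-ratio size factor. The submitters' processing notes name Partek, cutadapt, STAR 2.7.3, HTSeq and DESeq and the build EquCab3.0, with settings that the sources used here do not give. Gene coordinates come from the PBMC table.

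Multiples of what 1 read is worth gave back the reads: 99.87% to 99.98% of values per library were whole within 0.1 of a read. Libraries of a group differed by a chi-square per gene of at least 107 in fluid and 35.9 in PBMC, so none was a copy.

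Log2(value + 1) was fitted per tissue with limma 3.58.1 (R 4.3.3; robust, with a variance trend; mean of at least 10, two-sided, Benjamini-Hochberg). The difference between tissues used 4 group means and weights per tissue. On recovered reads edgeR 4.0.16 called 1947 genes higher and 2039 lower in fluid and 505 and 302 in PBMC; DESeq2 1.42.0 was a further alternative. Other alternatives were pseudocounts, filters, scalings, weights and each library left out. Horse numbers pair the samples, since the labels give them to the same animal. In 13 of 13 horses fluid and PBMC deviated together from their group means (correlation 0.123 to 0.391). Mismatched horses were not compared, so these correlations do not check the pairing. The steps were tested on simulated data. Horses are separate animals within a tissue.

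The genes and lists were chosen with earlier results of these data known. Named were the listed genes, up to 4 genes of smallest p past the threshold per pathway list and tissue, the 5 genes most like ME1 or PRDX2, and up to 3 markers of highest mean per cell type. IL7R, FASN and ME2 stand outside that rule and were named after their values were seen. Of the genes this rule names, 1 is not reported here singly, while the counts and medians keep it.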

Additional observations from a re-analysis of the deposited data

Results flagged for a closer look

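The OA effect of PRDX1 differed between tissues: it was 1.53 larger in fluid than in PBMC on the log2 scale (limma adjusted p = 0.00109). ME1, with an effect 2.58 larger in fluid, was flagged by the same threshold. Fluid chose ME1, so nothing is read from that flag.

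Of 24 gene, tissue and disease groups of 5 to 9 libraries, 3 had a library far from the others by Dixon's criterion, which chance alone gives in about 1 of 20 groups. GCLC had 1037 normalised counts in OA_2615, below the other OA fluid libraries. ME1 had 196.8 in healthy PBMC of ORC_209, and SRXN1 had 0 in healthy PBMC of ORC_202. The 11 healthy fluid libraries were too many for the criterion.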

How the results depend on the processing

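No fold change of the 8 genes that was tested turned sign under another pseudocount, filter, scaling, tool or weighting. With equal library totals 1302 fluid genes were higher, against 2006 as deposited. The median log2 fold change of all fluid genes was then -0.12, against 0.08, and 32.0% of the called genes were higher, against 51.4%. With that scaling 797 genes had an effect more positive in fluid than in PBMC, against 1315. With limma weights per library fluid had 3654 higher and 2981 lower, against 1893 lower, and PBMC 1370 higher and 942 lower. DESeq2 called 935 higher and 750 lower in PBMC, against 418 and 288.

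The number called rested on single libraries in PBMC. With 1 library left out in turn it ran from 14 (without OA_9570; 16 without OA_3850 and 17 without OA_9350) to 690 higher, and from 17 to 519 lower. It was 203, 146 and 159 higher without ORC_200, ORC_207 and ORC_208, and 690 without OA_1038 or ORC_202. In fluid it ran from 1208 (without OA_2615; 1288 without OA_3850) to 2575 higher and from 1298 to 2168 lower. In the difference it ran from 809 (without OA_9350; 811 without OA_1038) to 1531 more positive and from 951 (without OA_2615; 1000 without OA_9350) to 1730 more negative. PRDX2 in fluid ran from -0.88 to 0.026, positive only without OA_9570, and the difference of GCLC from -0.17 to 0.0047, positive only without horse OA_2615. The cause was not tested.

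The replicate block, within-horse differences of 13 horses, called 1407 genes more positive and 1670 more negative and changed no call of the 5 genes tested for the difference. Few reads limit SLC7A11, at 0 in 2 healthy fluid libraries.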

Other observations

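Of 16 genes of the ATF4 amino acid response, which also drives SLC7A11, 5 rose and 0 fell in fluid. Over all fluid genes 14.4% were called higher and 13.6% lower, and with few genes in the list nothing is read from its count. Among the 5 that rose were ATF5 (1.52 ± 0.31, SE; limma adjusted p = 0.0029), ATF3 (1.80 ± 0.59; adjusted p = 0.0331), SLC7A5 (1.78 ± 0.57; adjusted p = 0.0292) and MTHFD2 (0.41 ± 0.13; adjusted p = 0.0296). ATF3, SLC7A5 and MTHFD2 lost their calls in 4, 2 and 2 of 16 fits that left out 1 library. The count of 5 was 3 without OA_2615 and with equal library totals, and 1 without OA_3850 or OA_9350. In PBMC 1 of 15 fell, PHGDH, an enzyme of serine synthesis (-0.89 ± 0.25, SE; adjusted p = 0.0471), lost in 12 of 15 such fits. Of 7 phagocyte oxidase genes, RAC2 fell in fluid by 1.09 on the log2 scale (adjusted p = 0.00814) and the other 6 did not pass. None of the 7 was called in PBMC by limma (2 at an unadjusted p under 0.05; 0 by edgeR and 1 by DESeq2).

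ME1 also feeds fatty acid synthesis with NADPH. Of 9 lipogenesis genes in fluid, SREBF1, their main transcription factor, fell by 1.43 on the log2 scale (limma adjusted p = 0.00482) and ACACA rose by 0.60 ± 0.21 (SE; adjusted p = 0.0451), a call lost in 8 of 16 such fits and with equal library totals. Over all fluid genes 28.1% were called. FASN, named after its values were seen, had 0.21 ± 0.26 (SE; adjusted p = 0.548). ME2, the other mitochondrial malic enzyme and named in the same way, had 4140 ± 600 normalised counts in OA (SD, n = 5) and 4085 ± 1291 in healthy fluid (SD, n = 11; limma adjusted p = 0.824).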
